A study of Mus musculus with 8 samples.

Results

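The sequences described here are the small RNAs of mouse testis that the deposited annotation assigned to 3 messenger RNAs, Asb1 (NM_001039126), Tbl2 (NM_013763) and Ddx19b (NM_172284), which are 3 of 17267 mRNA accessions in the list. The sequences numbered 12234 of the 6246223 distinct sequences in the list, with 6073 from Asb1, 3167 from Tbl2 and 2994 from Ddx19b. Of these, 10224 were 24 to 33 nt long, the size of piRNAs. The 3 genes were chosen by this number, 5073, 2579 and 2572, among the mRNA accessions with most sequences, so the numbers themselves are a description. They ranked 3, 6 and 7. Kcnk10 (14102), Prkca (4373), Cbx7 (3352) and an accession without a symbol in the table used (6407) also ranked above Ddx19b but were not among those chosen, and Abl2, with 2019, stood just below.

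The study sequenced RNA of 19 to 33 nt from testes of mice labelled tdrd6-KO or tdrd1-KO, in which the named gene is mutated. Per the labels there were 8 libraries, 1 for each group: Tdrd6 mutant mice aged 18 days, 25 days or 6 weeks, and Tdrd1 mutant embryos of 18.5 days post coitum, each as a heterozygous and a homozygous group. The labels used here do not give the strain, the type of allele or the number of animals behind a library. The deposited list pools all libraries, without read numbers and without naming a library for any sequence. Genotypes and ages could therefore not be compared, the testis could not be checked against marker genes, and the sequencing depth is unknown. Every value below counts distinct sequences, each counted a single time however often it was read. Intervals in parentheses are exact 95% binomial (Clopper-Pearson) intervals, which cover counting error only. Sequences of a transcript overlap and are not independent molecules, so no p-value was computed.

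In the germ cells of the testis, Piwi proteins carry piRNAs that are cut from long precursor transcripts. Many start with U, and those bound by MILI (PIWIL2) are shorter on average than those bound by MIWI (PIWIL1). Many well-known precursors are noncoding RNAs, but mRNAs also give rise to piRNAs, mainly from their 3' untranslated regions and from the same strand as the mRNA. TDRD1 and TDRD6 are Tudor-domain proteins that bind methylated arginines of Piwi proteins. Asb1 encodes an ankyrin repeat protein with a SOCS box, the part that links it to a ubiquitin ligase. Tbl2 encodes a WD repeat protein of the endoplasmic reticulum, and its human counterpart lies in the region deleted in Williams-Beuren syndrome. Ddx19b encodes a DEAD-box ATPase that remodels mRNA-protein complexes at the nuclear pore during mRNA export.

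The sequences with most length variants show what these RNAs look like. For each gene, the 5' end with the largest number of lengths is shown with its longest variant of at most 30 nt. T stands for U, and the capital marks the first base.

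Asb1, chr1:91555926-91555955 (+): Taaccacggccttgagcatccttaggttgc
Tbl2, chr5:135160406-135160435 (+): Taacaggtctgtccagtgtcattacctacc
Ddx19b, chr8:111006359-111006388 (-): Taaaaaggtgagtcctacattgtgaatggc

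All 3 start in the 3' untranslated region. Each of these 5' ends was found with 10 lengths, every length from 24 to 33 nt. Coordinates are those of the match to GENCODE transcripts on GRCm38, since the build used by the authors was not given.

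Placed on the spliced transcripts, nearly all piRNA-length sequences were sense fragments of the named mRNA. Of the 5073 Asb1 sequences, 5063 lay on transcript Asb1-201 (5826 nt, 5 exons, chromosome 1, 91540714 to 91559589, plus strand). Of the 2579 Tbl2 sequences, 2573 lay on Tbl2-204 (7488 nt, 7 exons, chromosome 5, 135149657 to 135165760, plus strand), and of the 2572 Ddx19b sequences 2569 lay on Ddx19b-201 (6612 nt, 12 exons, chromosome 8, 111003188 to 111027764, minus strand), 2568 of them at a single position. Antisense matches alone were found for 1 Asb1 sequence, 2 Tbl2 sequences and 0 Ddx19b sequences. Under any label, 0 sequences that mapped to 1 position lay antisense to Asb1-201 or Ddx19b-201, and 18 lay antisense to Tbl2-204.

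The 3 mRNAs gave a broader length distribution than mRNA sequences in general. Numbers of shorter (26 and 27 nt) and longer (29 and 30 nt) sequences were almost equal in Asb1 and Tbl2. In Ddx19b the longer ones were fewer, 668 against 793. In Asb1 the counts were 672 at 26 nt, 699 at 27 nt, 632 at 28 nt, 731 at 29 nt and 743 at 30 nt, which is a dip between 2 maxima. Tbl2 had 349, 386, 314, 353 and 352 at the same lengths, again with a dip at 28 nt. Ddx19b had 391, 402, 338, 330 and 338, a maximum at 27 nt followed by a plateau. The mean length was 27.9 nt ± 2.28 (SD over 5073 sequences) in Asb1, 27.9 nt ± 2.28 (2579 sequences) in Tbl2 and 27.7 nt ± 2.21 (2572 sequences) in Ddx19b. All other mRNA accessions together (783579 sequences) had a single maximum at 26 nt and a mean of 27.2 nt ± 1.86.

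**Figure D1:**
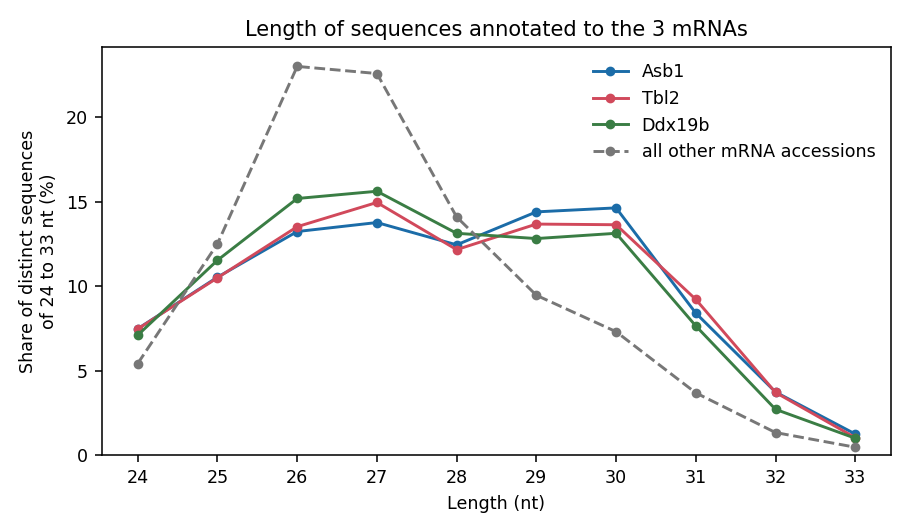
Share of the distinct sequences of 24 to 33 nt (y axis, percent) at each length (x axis, nt) for Asb1, Tbl2, Ddx19b and all other mRNA accessions (dashed). Asb1 and Tbl2 stay nearly level from 26 to 30 nt, and Ddx19b goes from 15.6% at 27 nt to 13.1% at 30 nt. The other accessions peak at 26 nt.

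Sequences of 29 and 30 nt made up 29.1% (27.8 to 30.3) in Asb1, 27.3% (25.6 to 29.1) in Tbl2 and 25.97% (24.3 to 27.7) in Ddx19b, against 16.8% (16.7 to 16.9) in the other mRNA accessions. Sequences of 26 and 27 nt made up 27.03% (25.8 to 28.3), 28.5% (26.8 to 30.3) and 30.8% (29.1 to 32.7), against 45.6% (45.5 to 45.7). The number of 29 and 30 nt sequences per sequence of 26 and 27 nt was thus 1.08 in Asb1, 0.959 in Tbl2 and 0.842 in Ddx19b, and 0.368 in the other accessions. Among the 3 genes, the intervals of Asb1 and Ddx19b did not overlap in either class, and that of Tbl2 overlapped with both. A 5' end with many lengths enters the count with each of them, and the members had 2.61, 2.69 and 2.27 sequences per 5' end (defined by the first 20 nt) against 1.19 in the other accessions. Whether that sets the shape was not tested. Restricted to 5' ends with a single sequence, the ratio was 0.824 in Asb1, 0.762 in Tbl2 and 0.534 in Ddx19b, against 0.314 in the other accessions, so the order and the direction were the same and the values were lower.

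Of the 593 mRNA accessions with at least 200 piRNA-length sequences, the 3 genes included, 545 had a lower ratio than Asb1, 520 a lower ratio than Tbl2 and 497 a lower ratio than Ddx19b. The median of the 593 was 0.358, and the range ran from 0.117 to 2.68. The 3 genes were therefore in the upper part of a wide range but not at its end. The accessions that ranked above Ddx19b but were not chosen were above the median as well. The ratio was 1.06 in Kcnk10, 1.06 in the accession without a symbol, 0.876 in Prkca and 0.702 in Cbx7. A high ratio was therefore not particular to the 3 genes. Arhgap20, one of the next mRNAs by number of sequences, had a ratio of 1.95, while Abl2 and Cbx5 had 0.398 and 0.571.

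By length distribution Asb1 and Tbl2 were close to each other, whereas Ddx19b was nearer to accessions outside the 3 genes than to either of them. The total variation distance, the part of the distribution that would have to be moved to turn one into the other, was 0.0229 between Asb1 and Tbl2, 0.0434 between Tbl2 and Ddx19b and 0.0549 between Asb1 and Ddx19b. Against 132 other accessions with a symbol and at least 500 sequences, the median distance was 0.162 for Asb1, 0.156 for Tbl2 and 0.142 for Ddx19b. The accession nearest to both Asb1 and Tbl2 was that of Kcnk10, a potassium channel gene, at 0.0192 and 0.0279. The next were Kctd7 for Asb1 (0.0443) and Wdfy3 for Tbl2 (0.0374), each nearer than Ddx19b. For Ddx19b the nearest were the accessions of Prkca, a protein kinase C gene, at 0.0239 and Maz at 0.0274. Each distance is over 10 lengths of pooled libraries, and small sets have larger distances by counting error alone.

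T was the usual first base in all 3 genes, and in Asb1 and Tbl2 it was first less often than in other mRNA sequences. Of the Asb1 sequences 74.2% (72.9 to 75.4) began with T, of the Tbl2 sequences 71.7% (69.95 to 73.5) and of the Ddx19b sequences 77.4% (75.7 to 79.01). The share in the other mRNA accessions was 78.5% (78.4 to 78.6), above the intervals of Asb1 and Tbl2 and inside that of Ddx19b. Of the 593 accessions, 41 had a lower share than Tbl2, 71 a lower share than Asb1 and 132 a lower share than Ddx19b. The accessions that ranked above Ddx19b but were not chosen had lower shares than all 3 genes. These were 70.9% in Kcnk10, 63.0% in the accession without a symbol, 63.3% in Prkca and 67.2% in Cbx7. A was the next most frequent first base, with 9.36% in Asb1, 11.1% in Tbl2 and 9.45% in Ddx19b, followed by G in Asb1 and Ddx19b and by C in Tbl2.

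**Figure D2:**
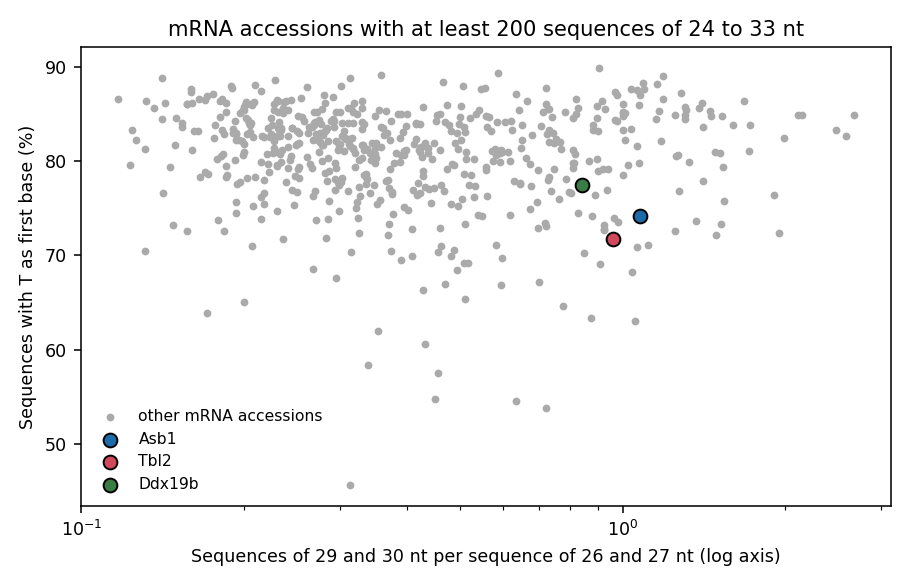
Each point is an mRNA accession with at least 200 sequences of 24 to 33 nt, placed by the number of 29 and 30 nt sequences per 26 and 27 nt sequence (x axis, log scale) and the share with T as first base (y axis, percent). Asb1, Tbl2 and Ddx19b lie to the right of most accessions and below most of them.

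In each gene T was first more often in longer than in shorter sequences. At 26 and 27 nt the share with T first was 70.02% (67.5 to 72.4) in Asb1, 66.1% (62.6 to 69.5) in Tbl2 and 74.1% (70.95 to 77.2) in Ddx19b. At 29 and 30 nt it was 79.6% (77.4 to 81.6), 75.3% (71.96 to 78.5) and 84.4% (81.5 to 87.1), and in none of the 3 genes did the 2 intervals overlap. In the other mRNA accessions the same shares were 79.6% and 80.8%, which is a smaller step. In Abl2, Arhgap20 and Cbx5 the shares were 79.0%, 63.5% and 82.4% at the shorter and 86.4%, 78.2% and 87.3% at the longer lengths, so the step was not particular to the 3 genes. Below the piRNA window the share fell further, to 55.9% (52.4 to 59.3) in Asb1, 49.1% (44.5 to 53.8) in Tbl2 and 55.6% (50.2 to 60.9) in Ddx19b at 19 to 23 nt.

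**Figure D3:**
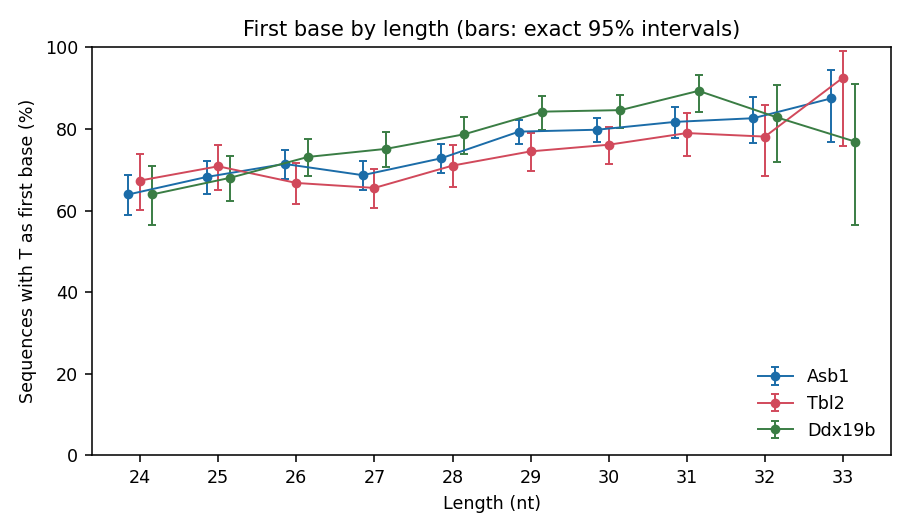
Share of sequences with T as first base (y axis, percent) at each length from 24 to 33 nt (x axis), with exact 95% intervals. In Asb1 the share goes from 63.9% at 24 nt to 87.5% at 33 nt, and intervals are widest at 33 nt, where Tbl2 has 27 and Ddx19b 26 sequences.

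A at position 10 is a mark of secondary piRNAs made by ping-pong cleavage. Its share was 23.7% (22.5 to 24.9) in Asb1, 24.5% (22.9 to 26.3) in Tbl2 and 26.7% (25.05 to 28.5) in Ddx19b. The mean share of A at positions 9 and 11 was 21.5%, 24.5% and 25.6%, and the other mRNA accessions had 25.8% (25.7 to 25.9) at position 10. The interval of Asb1 lay above the value of its own neighbouring positions and below that of mRNA sequences in general, while those of Tbl2 and Ddx19b included both. With all labels on the transcript the share in Ddx19b was 28.7%.

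The 3' untranslated region was the main source in all 3 genes. It held the 5' end of 4530 of the 5063 placed Asb1 sequences, 89.5% (88.6 to 90.3), of 2327 of the 2573 Tbl2 sequences, 90.4% (89.2 to 91.5), and of 2405 of the 2568 Ddx19b sequences, 93.7% (92.6 to 94.6). The region made up 80.9%, 81.2% and 76.6% of the transcript lengths. Sequences per kb after the stop codon were 962 in Asb1, 383 in Tbl2 and 475 in Ddx19b, which was 2.01, 2.19 and 4.52 times the density up to the end of the stop codon. Upstream of it, Asb1 had 478 per kb, Tbl2 174 and Ddx19b 105. By label and over the full annotated regions, Asb1 was thus the densest of the 3 on both sides. The Tbl2 region includes 3282 nt beyond the start of its last member, which lowers its density and its ratio. Densities over only the part with members were not computed. With all sense sequences that map to 1 position, whatever their label, the densities after the stop codon were 1011, 611 and 628 per kb in Asb1, Tbl2 and Ddx19b, and the ratios were 2.11, 3.49 and 5.93. With the sequences that Ddx19b shares with its paralog Ddx19a, the ratio of Ddx19b was 1.94, so its place above the others depends on how these are counted.

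The 5' untranslated region gave 370 sequences in Asb1 and 1 each in Tbl2 and Ddx19b, where it is only 81 and 110 nt long. Per kb these were 449, 12.3 and 9.09. The Asb1 transcript used here has a long annotated 5' untranslated region of 824 nt and a coding sequence of only 291 nt, whereas in the isoform Asb1-202 the coding sequence already begins in the first exon. Of the piRNA-length Asb1 sequences, 3 matched Asb1-202 and not Asb1-201. The split of Asb1 before the stop codon therefore depends on the isoform, whereas the stop codon is the same in both.

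Sequences covered the long forms of the 3' untranslated regions. Asb1-202 ends 1210 nt after the stop codon, and 3398 sequences, 67.1% of those placed, began beyond that point. Their density, 971 per kb, was close to the 936 per kb between the stop codon and that point, and 51 sequences ran across it. Ddx19b-202 ends 1591 nt after the stop codon. Beyond it began 1633 sequences, 63.6% of those placed, at 470 per kb against 485 per kb before it, and 11 ran across it.

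Along the transcripts the 3 genes had different profiles. Asb1 was covered almost throughout: 95.3% of its bases lay in at least 1 member, and its 29 windows of 200 nt held from 35 to 348 sequences with a median of 173. The fewest were at the 3' end, with 44 and 35 in the last 2 windows. Tbl2 members were concentrated in one part of the 3' untranslated region. Its 37 windows held from 0 to 389 with a median of 20, and 16 windows were empty. The shortest stretch with 1287 of its 2573 sequences was 1002 nt long, 13.4% of the transcript, against 2049 nt (35.2%) for 2532 sequences in Asb1 and 1595 nt (24.1%) for 1284 sequences in Ddx19b. Ddx19b had from 0 to 220 sequences in its 33 windows with a median of 58.

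**Figure D4:**
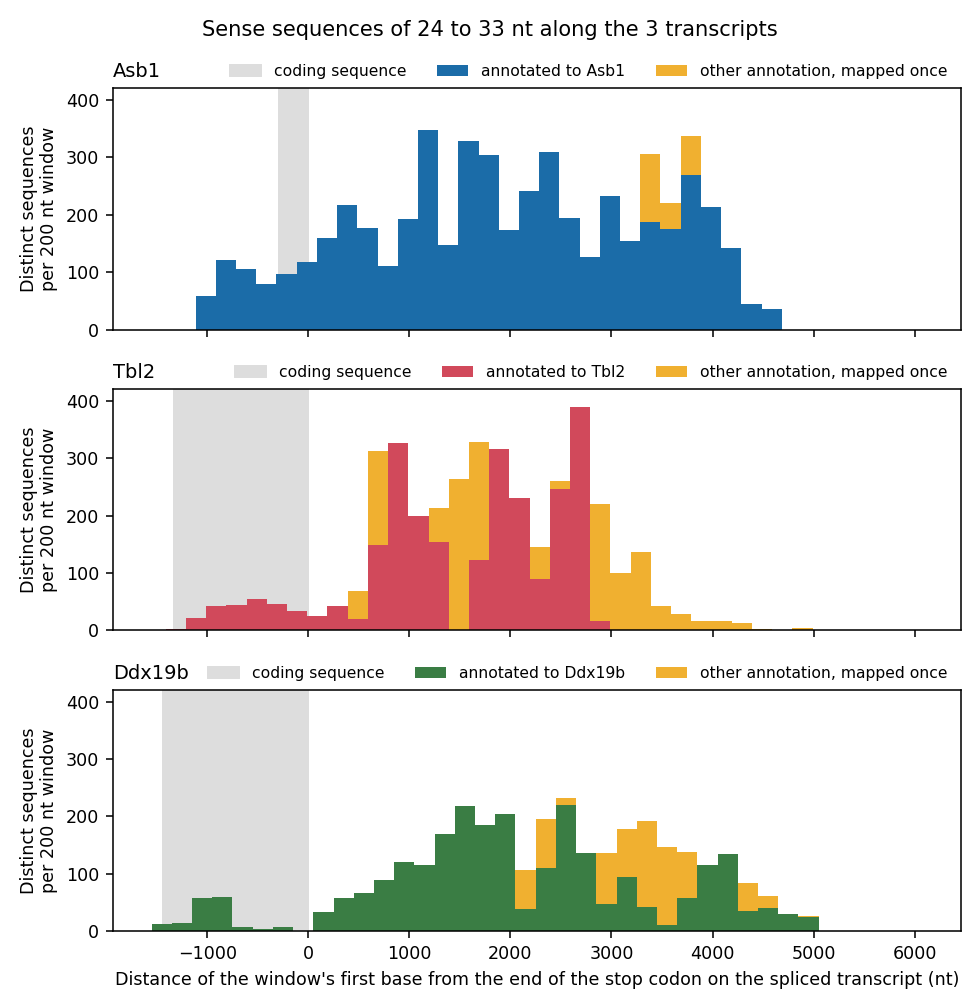
Distinct sense sequences of 24 to 33 nt per 200 nt window (y axis) against the distance of the window from the first base after the stop codon (x axis, nt), for the 3 transcripts, with the coding sequence shaded. Coloured bars are sequences annotated to the gene and yellow bars are those under another annotation that map to 1 position; the yellow bars lie in most gaps of the 3' untranslated regions of Tbl2 and Ddx19b, and Tbl2 members stop while other sequences go on.

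In the 3' untranslated regions, the longest gaps between members held sequences with a repeat name. Between the first and the last member of Tbl2-204, the longest stretch without a 5' end of a member was 374 nt, from base 2729 to base 3102 of the transcript. In it began 529 sequences that mapped to 1 position, all annotated to L2, an ancient LINE. The next, 264 nt from base 1855, held 214 such sequences, of which 157 were annotated to MIRc, an ancient SINE. In Asb1 a 100 nt gap held 108 sequences annotated to ID4 and a 95 nt gap held 118 annotated to L4. In Ddx19b a gap of 283 nt held 239 sequences annotated to the SINEs B1F, ID_B1 and B4. The sequences with most lengths among these, again with the first base in capitals, were the following.

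Asb1, labelled ID4, chr1:91558564-91558593 (+): Caagcactcgaccactgagctgtatcttct
Tbl2, labelled MIRc, chr5:135160319-135160348 (+): Tgtaaaatggggaacgatgctctctgtggc
Ddx19b, labelled B1F, chr8:111004768-111004797 (-): Tgagacagtattgctgagttcaaagccagc

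They were found with 9, 10 and 10 lengths, as many as or 1 fewer than the members with most. Counting every sense sequence that mapped to 1 position, whatever its label, Asb1-201 had 5295, Tbl2-204 3958 and Ddx19b-201 3341. The added sequences were 232 in Asb1, or 4.38% (3.85 to 4.97) of the total, 1385 in Tbl2, 34.99% (33.5 to 36.5), and 773 in Ddx19b, 23.1% (21.7 to 24.6). Tbl2 and Ddx19b, which differed by 7 sequences by label, thus differed by 617 by position. Their order per kb of transcript changed: by label Ddx19b had 388 and Tbl2 344, and by position Tbl2 had 529 and Ddx19b 505, with Asb1 at 869 and 909. Sequences with more than 1 position are left out of these values. Among them were 235 that Ddx19b shares with Ddx19a and 250 with a repeat name on Tbl2-204, and the order with them was not computed. With all labels 97.8% of Asb1-201, 75.3% of Tbl2-204 and 81.5% of Ddx19b-201 was covered, against 95.3%, 42.5% and 66.7% by label.

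The sequences under other labels resembled the members in length, and those of Tbl2 and Ddx19b also in first base. T was first in 72.5% (70.1 to 74.8) of the added Tbl2 sequences and 74.4% (71.2 to 77.4) of those of Ddx19b, both overlapping with the intervals of the members. In Asb1 it was first in 59.9% (53.3 to 66.3), below the members. Sequences of 29 and 30 nt made up 32.8%, 29.3% and 25.4% of the added sequences of Asb1, Tbl2 and Ddx19b, with intervals that overlapped those of the members. A at position 10 was found in 35.2% of the added Ddx19b sequences, against 26.7% of its members, and in 23.7% and 27.6% of those of Asb1 and Tbl2.

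Tbl2 members ended before the transcript did. The last began at base 4206 of 7488, and 389 began in the fullest window just before, from base 4001 to base 4200. Beyond base 4206, 570 further sense sequences mapped to 1 position, of which 197 had no annotation and the others a repeat name. Their number was lower towards the 3' end, though not in a steady fall. There were 203 under other labels in the window from base 4201, 100 in that from base 4401 and 136 in that from base 4601. Further on there were 29 in the window from base 5001 and at most 5 in each window from base 5801 on. Of the 198 sequences without annotation on the transcript, 87.4% began with T, and 34.3% were 26 or 27 nt and 23.7% were 29 or 30 nt long. The same shares of the Tbl2 members were 71.7%, 28.5% and 27.3%. The RefSeq gene used for symbols ends at base 5601 of this transcript, beyond the last member, and 6 of the 198 sequences without annotation began after that base. The version of the accession that the authors used is not given in the sources used here.

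In Ddx19b the coding sequence had few members, and further sequences that match it were annotated to the neighbouring gene Ddx19a. Ddx19a and Ddx19b are paralogs with closely similar coding sequences. The longest stretches of Ddx19b-201 without a 5' end of a member, 328 nt from base 1356 and 288 nt from base 691, were largely in the coding sequence. Of the 264 piRNA-length sequences annotated to Ddx19a (NM_007916), 235 matched both genes, all with more than 1 position, and 17 matched Ddx19a alone and mapped to 1 position. None of the sequences annotated to Ddx19b matched Ddx19a. The shared sequence with most lengths, 7 in all, was this one.

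Ddx19b, labelled Ddx19a, chr8:111021045-111021074 (-): Tactcaacaagctgatcagaagcaatcttg

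Of the shared sequences, 219 began in the coding sequence of Ddx19b, which has 162 members. The density there was 113 per kb without them and 265 per kb with them. The gene that a shared sequence came from cannot be told from the list, so the values with and without them are both given.

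Where members were dense, most T positions were in use as 5' ends. In the 3' untranslated region of Asb1, 993 of 1464 T positions, 67.8% (65.4 to 70.2), were the 5' end of a piRNA-length member, compared with 24.3% of A, 22.1% of C and 19.4% of G positions. In Ddx19b the shares were 43.7% (41.2 to 46.3), 12.1%, 11.2% and 10.4%. In Tbl2 they were 24.5% (22.4 to 26.6), 9.48%, 9.41% and 7.68%. The Tbl2 shares include the 3282 nt beyond the start of its last member, where no position is used by label. In each gene T was thus used far more often than any other base. In the fullest window of 200 nt, 66 of 72 T positions of Asb1 were used, 91.7% (82.7 to 96.9), 53 of 63 in Tbl2, 84.1% (72.7 to 92.1), and 46 of 68 in Ddx19b, 67.6% (55.2 to 78.5). With all labels, T use over the whole transcript was 68.2% in Asb1, 43.6% in Tbl2 and 49.4% in Ddx19b.

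**Figure D5:**
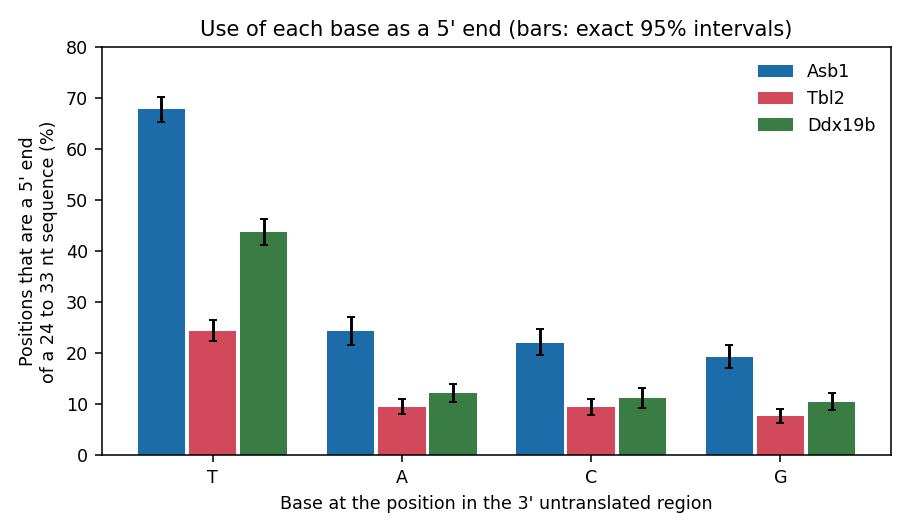
Share of the positions of each base in the 3' untranslated region (x axis) that are the 5' end of a member of 24 to 33 nt (y axis, percent), with exact 95% intervals. In each gene the T bar is the highest, and Asb1 has the highest share for every base, while the intervals of Ddx19b and Tbl2 overlap for A, C and G.

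A 5' end at T was found with more lengths than a 5' end at another base. Asb1 had on average 3.35 lengths per 5' end at T and 1.60 at other bases, Tbl2 3.58 and 1.67, and Ddx19b 2.85 and 1.35. With each end counted a single time, T was first in 57.9% of the ends of Asb1, 54.3% of those of Tbl2 and 61.9% of those of Ddx19b, less than the shares of sequences. Many T ends had a short and a long form. Of the 1120 T ends of Asb1, 499 (44.6%) had a length of 26 or 27 nt as well as a length of 29 or 30 nt, as had 243 of 515 (47.2%) in Tbl2 and 255 of 698 (36.5%) in Ddx19b. The shares were 17.3% in Abl2, 26.7% in Arhgap20 and 18.6% in Cbx5. T ends of these genes also had fewer lengths on average, 1.95, 2.57 and 1.86, and only an end with several lengths can have both forms. Lengths per end also add to the number by which the members were chosen. Whether the lower shares follow from this was not tested. At other bases the shares with both forms were 10.3% in Asb1, 12.1% in Tbl2 and 6.05% in Ddx19b. Over all ends there were 2.61 sequences per 5' end in Asb1, 2.70 in Tbl2 and 2.28 in Ddx19b, and 1.84, 1.98 and 1.56 per 3' end. The 5' ends were thus shared by more sequences than the 3' ends in each gene.

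Adjoining sequences, where the 5' end of the second follows directly on the 3' end of the first, are the arrangement left by phased cutting of a precursor. Such pairs existed in all 3 coding sequences, and the pair whose 2 ends together had most lengths is shown for each, the first sequence above the second.

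Asb1, first, chr1:91554766-91554789 (+): Tgctgagtttgtgccgggtggctg
Asb1, second, chr1:91554790-91554819 (+): Tgagaagagctcttggcaaataccgactgc
Tbl2, first, chr5:135156413-135156442 (+): Taagatgaccaagcgggaagatgggggctt
Tbl2, second, chr5:135156443-135156472 (+): Tactttcacggccacaccagaggatttccc
Ddx19b, first, chr8:111012808-111012834 (-): Ttcaaacaggaaaagtgattgagcaga
Ddx19b, second, chr8:111012780-111012807 (-): Tgggcaagttttaccctgaactgaagct

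Adjoining ends were, however, about as frequent as ends at any other distance. Of the 2746 3' ends of Asb1, 36.1% (34.3 to 37.9) were followed directly by a 5' end, against a mean of 36.6% (range 35.9 to 37.3) over distances of 2 to 20 nt. In Tbl2 the share was 36.6% (33.9 to 39.3) of 1299 3' ends, against 36.04% (34.9 to 36.8). In Ddx19b it was 28.2% (26.02 to 30.4) of 1643 3' ends, against 26.5% (25.6 to 27.8), so the value lay above all 19 other distances but its interval included their mean. Where T stood at the position, it was a 5' end in 70.1%, 74.1% and 58.8% of cases directly after a 3' end and in 71.7%, 70.9% and 55.4% on average at the other distances. In Tbl2 and Ddx19b the value directly after a 3' end was above all 19 other distances, whose highest were 73.8% and 57.2%. In Asb1 it was below their mean. The intervals, 66.8 to 73.3 in Asb1, 68.9 to 78.9 in Tbl2 and 54.3 to 63.3 in Ddx19b, included these means. The base after a 3' end was T in 28.9% (27.2 to 30.6) of Asb1, 24.1% (21.8 to 26.5) of Tbl2 and 29.6% (27.4 to 31.9) of Ddx19b 3' ends, and T made up 29.2%, 26.5% and 27.03% of the transcripts. Without read numbers, phasing could be measured only on positions in use, not on how often each was used.

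Few sequences crossed an exon junction. Of the 4 junctions of Asb1-201, the 6 of Tbl2-204 and the 11 of Ddx19b-201, 1, 2 and 0 were crossed by a member, each by a single sequence with only 1 nt on the far side. Under any label, 1 sequence crossed a junction in Asb1-201, 2 in Tbl2-204 and 4 in Ddx19b-201. Points 40 nt from a junction were covered by 11.4 members on average in Asb1, 6.08 in Tbl2 and 4.94 in Ddx19b. A sequence across a junction has no uninterrupted position in the genome. Every sequence in the list has a number of mapped positions of at least 1, and how the authors treated junctions was not given, so these counts do not bear on splicing of the source RNA. The last exon, which lies free of junctions, held 91.1% of the placed Asb1, 94.2% of the Tbl2 and 93.7% of the Ddx19b sequences.

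Members shorter than piRNAs mostly shared an end with a piRNA-length member. Of the 842 placed Asb1 sequences of 19 to 23 nt, 616 (73.2%, 70.03 to 76.1) began at a 5' end of a member of 24 to 33 nt and another 191 (22.7%) shared only the 3' end. In Tbl2 the numbers were 321 (68.7%) and 122 (26.1%) of 467, and in Ddx19b 206 (59.5%, 54.2 to 64.8) and 117 (33.8%) of 346. T was first in 70.5%, 66.4% and 80.6% of those with a shared 5' end, and in 16.4%, 10.96% and 18.6% of the remainder. The remainder can begin only where no piRNA-length member does, and T positions were the most used by members. The contrast in T is therefore partly built in by the split. Among sequences of 15 to 18 nt, fewer in number, 49.6% of 139 in Asb1, 55.9% of 111 in Tbl2 and 38.8% of 67 in Ddx19b had a shared 5' end. How much of this sharing the density of ends alone would give was not tested.

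Relatives of the 3 genes had far fewer sequences. The 3 genes were chosen for high numbers, so this contrast was largely set by the choice. By the lists used here, of 17 other genes of the Asb family, 15 had a piRNA-length sequence, with a median of 7, and Asb18 alone reached 100, with 271. Of the 3 other genes named after transducin beta-like proteins, Tbl1xr1 and Tbl1x, parts of a nuclear corepressor complex, had 615 and 111, and Tbl3 had 10. Among 14 other genes of mRNA export, 13 had a sequence and 4 reached 100: Nxf1, the main export receptor, with 332, Ddx19a with 264, of which 235 match Ddx19b as well, and the helicase genes Ddx39b and Ddx39a with 123 and 112. Gle1, the activator of the Ddx19 ATPases, had 13. The listed export gene without a sequence was not found among the gene symbols used, so whether it had one is unknown. In the list of the PERK stress pathway, to which Tbl2 has been linked, Atf4 had 258, Ppp1r15a 160 and Ddit3 128 of the 5 genes. In the Piwi pathway list, Piwil2 had 261, Tdrd6 216, Mov10l1 174, Mael 161 and Tdrd1 134, and 8 of 10 genes had a sequence. Over all 15835 genes with a piRNA-length mRNA sequence the median was 21, and 1645 reached 100. The share of all genes that had a sequence was not computed, so the numbers of listed genes with any sequence have no background beside them. These are numbers by label and are not corrected for transcript length.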

How the data were processed

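The values came from 1 table that the authors deposited for the whole series. Per the file headers the columns give each sequence, its map number (a count of positions, the only measured value deposited) and the annotation; the aligner, genome build and annotation version are not given in the sources used here. Of its columns, 0 are tied to a sample. Sequences annotated to the 3 accessions were taken at all lengths from 15 to 36 nt, with 24 to 33 nt as the main window. They were matched exactly, over their whole length and on both strands, to the GENCODE release M21 transcripts of GRCm38 (spliced; introns were not searched). For each gene the transcript with most matches was used. Gene symbols came from a RefSeq table of GRCm38.p6. A 5' end was a transcript position or, without a transcript, the first 20 nt. Values were computed with Python 3.11.15, numpy 2.4.6 and scipy 1.17.1. On simulated data 2000 of 2000 sequences were placed correctly, 0 of 1000 random sequences were matched and 120 of 120 adjoining ends were found. The simulated ends had no other 5' end within 20 nt, so the last check does not cover the density of ends in the data.

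The members, the gene lists and the measures were chosen with earlier results of these data known. The named genes were the 3 members, the 2 accessions nearest to each by length distribution, listed genes with at least 100 sequences and genes within 50 kb. Abl2, Arhgap20 and Cbx5 were added as the next mRNAs in the ranking, and Gle1, Tbl3 and the genes of the chosen gaps after their values had been seen. Alternatives were a window of 25 to 32 nt, each 5' end or position counted a single time, sequences that map to 1 position and the transcript with the longest coding sequence. Those over all labels, over 5' ends with a single sequence and with the sequences shared with Ddx19a were added after seeing the data.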

Additional observations from a re-analysis of the deposited data

Results flagged for a closer look

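Sequences outside the annotation that defined the members drew attention because they lay on the same transcripts and the same strand. Asb1-201 carried 232 such sequences of 24 to 33 nt that mapped to 1 position. Tbl2-204 carried 1385, of which 529 were labelled L2, 375 MIRc and 198 had no annotation. Ddx19b-201 carried 773, led by B1F with 231, ID_B1 with 184 and PB1D10 with 159. There were no control samples against which to set these numbers. No sample could be examined as an outlier, since the table is pooled.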

How the results depend on the processing

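Of 67 values recomputed under an alternative, for 21 results, 51 were labelled the same as the reported value and 16 as moved. For shares the criterion was the interval of the reported value. For mean length it was the SD, which is far wider than the differences between the genes. No interval is given here for the ratios of lengths and of densities. All values with the 25 to 32 nt window and with sequences that map to 1 position were labelled the same. The second setting could hardly change a value, since it kept 5073 of 5073 Asb1, 2579 of 2579 Tbl2 and 2571 of 2572 Ddx19b sequences. It gave 18 of the 51 unchanged values. With each 5' end counted a single time the share of T as first base was 57.9% in Asb1, 54.3% in Tbl2 and 61.9% in Ddx19b. With each position counted a single time the share in the 3' untranslated region was 87.8% in Asb1 and 84.5% in Tbl2. On the transcript with the longest coding sequence it was 66.9% in Asb1 (Asb1-202, 1617 sequences) and 82.6% in Ddx19b (Ddx19b-202, 921 sequences), since these transcripts have shorter 3' ends and fewer sequences match them. With all labels on the transcript the share in the 3' untranslated region was 93.8% in Tbl2 and 95.1% in Ddx19b, and A at position 10 was 28.7% in Ddx19b. The density after the stop codon was then 3.49 times that before it in Tbl2 and 5.93 times in Ddx19b, and 1.94 times in Ddx19b with the sequences shared with Ddx19a. At 5' ends with a single sequence the number of 29 and 30 nt sequences per sequence of 26 and 27 nt was 0.824 in Asb1, 0.762 in Tbl2 and 0.534 in Ddx19b. With all labels on the transcript it was 1.09, 1.01 and 0.855. The cause was not tested.

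No paired analysis was possible because the table ties no sequence to a library and each group has 1 library. Read depth is unknown, so an unused position cannot be told apart from one that was not sampled.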

Other observations

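The genes around the 3 members had from 9 to 264 piRNA-length sequences by label, against a median of 21 over all genes with such a sequence. Within 50 kb of Asb1 lay Traf3ip1, upstream on the same strand, with 11. Near Tbl2 lay Mlxipl with 17, Bcl7b with 34 and Baz1b with 83. Near Ddx19b lay Aars with 20, Clec18a with 23, Exosc6 with 9, St3gal2 with 48 and Ddx19a with 264, most of them shared with Ddx19b. Sequences between genes and in introns were not searched, so whether the signal ends with the annotated transcripts was not tested.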
